A study of Drosophila melanogaster with 8 samples.

Results

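The arrays analysed here compared head RNA of Drosophila melanogaster at the end of a sodium valproate course that followed pentylenetetrazole, on day 10. They were chosen by their titles and are 4 of the 8 arrays of the series. The treated flies were unmated Oregon-R wild-type males, aged 3 to 4 days at the start. They ate pentylenetetrazole food for 7 days and valproate food for 3 days, and the heads were then collected. Their controls were males of the same strain and age, kept on normal food over the same 7 and 3 days. Each array carried the pooled head RNA of treated flies in one dye and that of parallel control flies in the other. The treated RNA carried Cy5 on replicates 1 and 2 and Cy3 on replicates 3 and 4. The other 4 arrays of the series held heads of flies given 4 more days of normal food after valproate, collected on day 14. Dose is uncertain: pentylenetetrazole is 8 mg/ml by the sample labels but 0.33 mg/ml by the series text, and valproate is 0.33 mg/ml by the labels but 24 mg/ml by the text. No group here received valproate without pentylenetetrazole or the reverse, so the effects of the 2 drugs cannot be told apart. In the series text the 4 replicates are described as biological, each from its own set of vials.

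Pentylenetetrazole closes the chloride channel of GABA-A receptors, which removes inhibition from neurons and provokes seizures, and given over days it is used to model epileptogenesis. Valproate is an anticonvulsant and mood stabiliser that raises brain GABA, dampens sodium channels and inhibits class I histone deacetylases. In the fly head the brain shares its RNA pool with the compound eyes, head fat body, muscle and cuticle. Foreign compounds are oxidised there by cytochrome P450 enzymes, conjugated by glutathione and UDP-glycosyl transferases, and pumped out of cells by ABC transporters.

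A log2 ratio above 0 means more treated than control RNA. This reading takes each deposited value as Cy5 over Cy3, which is likely because Cy5 is listed as channel 1 on every array, but it is not stated; if the ratio was Cy3 over Cy5, every direction given here turns round. The 27648 spots had values for 18976, 19905, 13524 and 19642 on replicates 1 to 4, and the SD of the ratios was 0.86, 0.68, 0.56 and 0.52, against 0.33 to 0.43 on the day 14 arrays. Duplicate spots of a clone correlated at 0.61 to 0.79 across clones. With 4 arrays, their number sets the precision. A ratio carries no level, so the head label could not be checked against the levels of marker genes; of 17 named photoreceptor markers, 15 had a value on 3 or more arrays.

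After the 2 swapped arrays were turned to treated over control, arrays of opposite dye orientation ran against each other. Across the 3372 named genes with values on all 4 arrays, the correlation was 0.54 between replicates 1 and 2 and 0.23 between replicates 3 and 4. Between arrays of opposite orientation it was -0.19, -0.47, -0.51 and -0.43. Genes of one array are not independent replicates, so these values are a description of the arrays. Of the 1776 genes with 2 arrays above and 2 below 0, 1327 were split by dye orientation. IleRS, the isoleucyl-tRNA synthetase gene, had log2 ratios of 1.92 and 1.34 with treated RNA in Cy5, but -0.12 and -0.12 in Cy3. CCT8, a subunit of the TRiC chaperonin, had 1.84 and 1.25 in Cy5 and -0.23 and -0.63 in Cy3. Both genes were high only while the treated RNA was in Cy5. A gene-wise dye term in the limma fit takes up such a split, and its median size over named genes was 0.28 on the log2 scale, against a median of 0.17 for the treatment term.

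**Figure D1:**
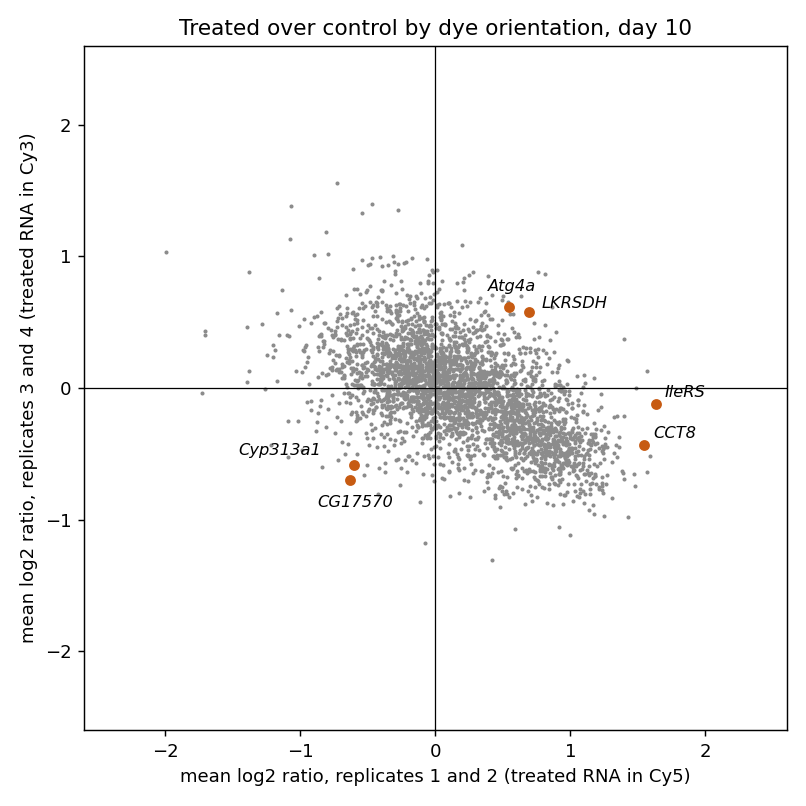
Each point is 1 of 3372 named genes, by its mean log2 ratio of treated over control RNA on replicates 1 and 2 (x axis, treated RNA in Cy5) and on replicates 3 and 4 (y axis, treated RNA in Cy3); 2 genes lie outside the axes. The cloud slopes downwards, LKRSDH, Atg4a, CG17570 and Cyp313a1 lie at similar distances from 0 on both axes, and IleRS and CCT8 lie far out on the x axis alone.

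No feature passed the test at day 10. Limma tested 11501 features, of which 5224 were named genes and 6277 were rows that could not be tied to one gene, and called 0 (0%) at an adjusted p of 0.05; the lowest adjusted p was 0.80. At an unadjusted p under 0.05 there were 582 features, against 575 that an even spread of p values gives. They were 337 higher (2.93%) and 245 lower (2.13%), and among named genes 152 higher (2.91%) and 120 lower (2.3%). That lean to higher features turned round without the median centring of arrays (139 higher, 374 lower), with print blocks centred one by one (251 higher, 363 lower) and without the dye term (89 higher, 166 lower).

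All 4 arrays lay above 0 for 211 of the 3372 named genes (6.26%) and below 0 for 84 (2.49%). Rows without a gene name gave nearly the same shares, 6.38% and 2.45% of 4170. Without centring, 101 named genes lay above 0 on all 4 arrays and 58 below. Only 13 genes were at least 0.25 above 0 on every array, and 8 at least 0.25 below. The genes described next were picked from these by their p or by their array nearest to 0, so they are given as values and none of them passed the test.

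An enzyme of lysine breakdown, an enzyme of nucleotide synthesis and an autophagy protease were among the genes farthest above 0 on every array. LKRSDH, the bifunctional enzyme that starts lysine breakdown, had log2 ratios of 0.73, 0.66, 0.54 and 0.61 on replicates 1 to 4. Its mean was 0.64 ± 0.13 (SE of the limma fit, n = 4), a 1.55-fold higher level in treated heads, with an adjusted p of 0.80 in limma. Ts, the thymidylate synthase that makes thymidine monophosphate for DNA, had 0.56, 0.54, 0.51 and 0.61, with a mean of 0.56 ± 0.13. The arrays of both genes differed by less than 0.25 from each other, beside a median SD of 0.45 over named genes with 4 values. Both genes were picked by rules that favour a small spread, so their closeness follows in part from that choice. Atg4a, a protease that processes the autophagosome protein Atg8, had 0.41, 0.68, 0.57 and 0.65. With print blocks centred one by one, the mean of Ts was 0.32 and that of Atg4a 0.38, while LKRSDH stayed at 0.62.

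Other genes with every array at least 0.25 above 0 followed. Rim2, the mitochondrial carrier of pyrimidine nucleotides, had log2 ratios of 0.37, 0.62, 0.93 and 0.40, with a mean of 0.58 ± 0.16 (n = 4). MCTS1, which helps ribosomes start again after short upstream reading frames, had 0.73, 0.50, 0.34 and 0.44. CG4953 had 0.44, 1.19, 1.25 and 0.49, with a mean of 0.84 ± 0.21. Rim2 and CG4953 were not split by dye orientation, and MCTS1 was somewhat higher with the treated RNA in Cy5. The nicotinic acetylcholine receptor subunit gene nAChRalpha4 followed with 0.70, 0.33, 0.48 and 0.34. CG10098 had 1.06 on replicate 3 and 0.32, 0.34 and 0.32 on the others, so its mean of 0.51 leans on a single array.

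A second set of genes above 0 had a small p in a fit whose dye term takes up the split of their arrays by dye. car, the Vps33A subunit of the complex that fuses vesicles with lysosomes and pigment granules, had 1.21 and 0.75 in Cy5 but 0.24 and 0.18 in Cy3. hts, the adducin that caps actin filaments at the membrane, had 1.01, 0.64, 0.21 and 0.33. The same shape held for mldr with 0.90, 1.20, 0.03 and 0.15 and for CG7213 with 1.01, 0.79, 0.16 and 0.08. All 4 genes were higher with the treated RNA in Cy5 than in Cy3. Without the dye term their SE was 0.22 to 0.26, against 0.14 to 0.15 with it. Rrp1, an endonuclease of DNA base excision repair, averaged 0.55 ± 0.14, but its 2 clones were at -0.94 and 1.53 on replicate 4. CG2217 had 0.85, 0.86 and 0.66 on replicates 1 to 3 and 0.08 on replicate 4.

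**Figure D2:**
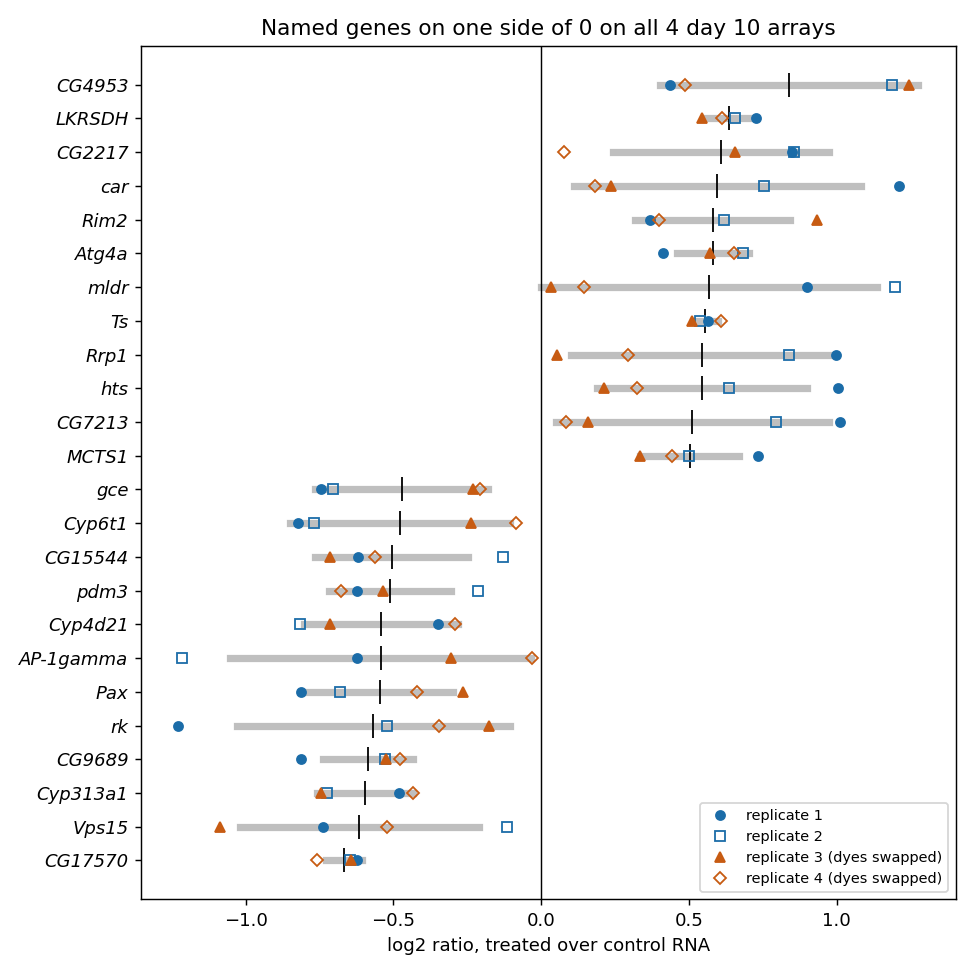
Log2 ratios of treated over control RNA (x axis) on each day 10 array for the 12 named genes per direction with the smallest unadjusted p among genes on one side of 0 on all 4 arrays. Black ticks are means and grey bars span 1 SD on each side; LKRSDH, Ts and CG17570 are tight, while car, mldr and Rrp1 are spread by dye orientation.

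Among the genes below 0, CG17570 had the widest margin on its array nearest 0, at -0.62, -0.65, -0.64 and -0.76 on replicates 1 to 4. Its mean was -0.67 ± 0.14 (n = 4), 1.59-fold lower in treated heads, with an adjusted p of 0.80 in limma. CG9689 had -0.81, -0.53, -0.53 and -0.48, and CG8630 had -0.47, -0.29, -0.42 and -0.33. For these 3 genes every array lay more than 0.25 below 0, in either dye orientation. Other genes followed at similar size. The adhesion adaptor gene Pax, which encodes paxillin, had -0.81, -0.68, -0.27 and -0.42. pdm3, a POU-domain transcription factor of neurons, had -0.62, -0.21, -0.54 and -0.68. rk, the receptor of the cuticle-hardening hormone bursicon, had -1.23, -0.52, -0.18 and -0.34, with its mean of -0.57 set largely by replicate 1. CG15544 had -0.62, -0.13, -0.71 and -0.56.

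Among detoxification genes, the P450 and ABC transporter genes lay mostly below 0. Of 72 cytochrome P450 genes named on the array, 48 were tested, and 34 of them (70.8%) lay below 0, beside 43.4% of all named genes tested. Their median log2 ratio was -0.15, beside 0.04 over named genes. The medians over P450 genes were -0.40, -0.26, -0.17 and -0.02 on replicates 1 to 4, all below 0 but close to it on replicate 4. No P450 gene was called after adjustment, and at an unadjusted p under 0.05 there were 6 lower and 1 higher of 48, beside 2.3% and 2.91% of named genes. All 4 arrays lay below 0 for 4 of the 28 P450 genes with 4 values, beside 2.49%, and above 0 for 0 of 28, beside 6.26%, which leaves 24 with arrays on both sides. The share below 0 was 60% to 65.2% when single arrays were left out, over 35 to 51 genes. In bulk heads, fewer cells of a type and less RNA per cell cannot be told apart.

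Cyp313a1 had log2 ratios of -0.48, -0.73, -0.74 and -0.43, with a mean of -0.60 ± 0.15 (n = 4), 1.51-fold lower in treated heads. Cyp4d21, also called sxe1 and expressed in the head fat body of males, had -0.35, -0.82, -0.71 and -0.29. On replicate 1 its 2 clones were at -0.64 and -0.06, and the clone at -0.64 had no value on the other arrays. Its distance from 0 on replicate 1 therefore rests on their average. Neither gene was split by dye orientation. Cyp6t1 had -0.82 and -0.77 with treated RNA in Cy5 but -0.24 and -0.09 in Cy3, and its second clone was at 0.01 on replicate 4. Cyp6a8, an enzyme that oxidises fatty acids and is induced by drugs such as barbiturates, had -1.10, -0.27, -0.53 and -0.29. Its 3 clones averaged -1.04, -1.15 and -0.13, but over different arrays. On replicate 1 the clones were at -2.24, -1.15 and 0.09, so its side there rests on their average. The P450 genes farthest above 0 were Cyp4ae1, with 0.81, 0.56, -0.11 and 0.33, and the mitochondrial P450 Cyp12d1-d, with 0.69, 1.25, 0.04 and -0.40. Both had arrays on either side of 0.

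**Figure D3:**
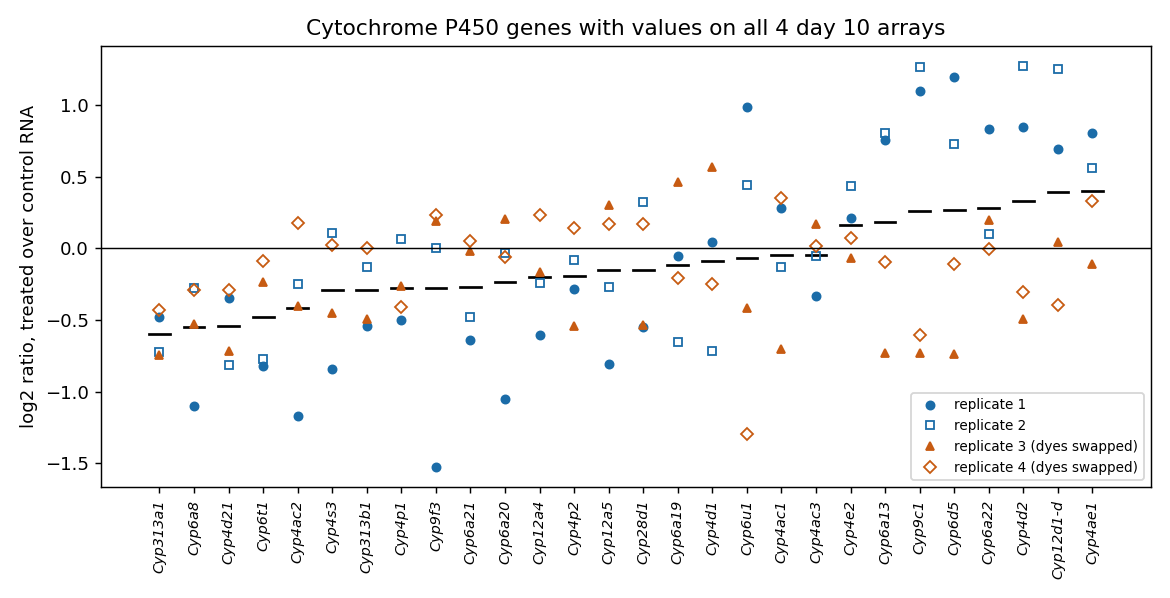
Log2 ratios of treated over control RNA (y axis) for the 28 P450 genes with values on all 4 day 10 arrays, ordered by mean; points are arrays and black lines are means. The 4 genes on the left, Cyp313a1, Cyp6a8, Cyp4d21 and Cyp6t1, have all arrays below 0, and the genes on the right lie above 0 mainly on replicates 1 and 2.

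ABC transporter genes lay below 0 in 8 of 9 tested, with a median log2 ratio of -0.27. That median was -0.09 over the 4 genes with values on all arrays. Mdr65, a drug pump of the glial blood-brain barrier, had -1.70 and -1.11 on replicates 1 and 2, no value on replicate 3 and 0.07 on replicate 4. Its fitted mean of -0.67 ± 0.22 (n = 3) therefore rests on arrays with treated RNA in Cy5. Mrp4, a pump of organic anions, had -0.73, -0.03 and -0.69 without replicate 3. Glutathione transferases showed no lean, with 7 of 14 above 0 and a median of 0.01; GstD4 alone was above 0 on all 4 arrays, at 0.02, 0.87, 0.20 and 0.07. UDP-glycosyl transferases had 3 of 6 above 0 and a median of -0.09, and Ugt37E1 ranged over -1.59, 0.00 and -0.62 on replicates 1 to 3. Metal-handling genes had a median of -0.03, and Fer2LCH, the ferritin light chain, had -0.35, 0.23 and -0.29 without replicate 3.

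Antioxidant genes leaned the other way, with 10 of 13 above 0 and a median log2 ratio of 0.18. Keap1, the sensor that holds the stress factor Nrf2 (cnc in flies) inactive, had 1.12, 0.39, 0.47 and 0.12, with a mean of 0.53 ± 0.18 (n = 4). Sesn, the stress-induced inhibitor of TOR signalling, had 0.19, 0.38, 0.14 and 0.37. Averaged over clones, both genes were above 0 on every array, but the second clone of Sesn was at -0.09 and -0.03 on replicates 1 and 2. The medians over antioxidant genes were 0.22 and 0.38 on replicates 1 and 2 but -0.10 on both swapped arrays, so the dye orientations lay on opposite sides of 0.

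Genes of energy metabolism centred near 0. Respiratory chain genes had 21 of 30 above 0 and a median of 0.10, with array medians of 0.23, 0.40, -0.31 and 0.04. ND-20, a subunit of complex I, had 0.57, 0.87, -0.14 and 0.29. The medians were 0.07 for 22 glycolysis and TCA cycle genes (-0.02 without centring), 0.02 for 16 genes of the pentose phosphate path and sugar storage, and 0.03 for 38 mitochondrial ribosome genes. Within the mitochondrial ribosome, mRpS7 was above 0 at 0.80, 0.37, 0.09 and 0.13, and mRpS11 below 0 at -0.65, -0.23, -0.28 and -0.01. Lipid genes had 23 of 35 above 0 and a median of 0.09, which was -0.03 without replicate 2. Among them AcCoAS, which charges acetate to acetyl-CoA, had 0.25, 0.33, 0.17 and 0.20, a small value with little spread. With print blocks centred one by one, the mean of AcCoAS was 0.03. Amino acid genes lay below 0 in 13 of 18, with a median of -0.08, in a list that does not hold LKRSDH; Sardh, which breaks down sarcosine, had -0.62, 0.00, -0.71 and -0.16.

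In the GABA signalling list, 5 of 6 tested genes lay above 0, with a median log2 ratio of 0.18. These 6 include Clic, a chloride intracellular channel gene not specific to GABA, at 0.93, 0.99, -0.63 and -0.43. The array medians of the list were 0.41, 0.37, -0.41 and -0.27, on opposite sides of 0 by dye orientation. Gad1, the enzyme that makes GABA, had log2 ratios of 0.53, 0.38, -0.18 and -0.16, with a mean of 0.14 ± 0.14 (n = 4). Gabat, the transaminase that degrades GABA, had 0.20, 0.14, -0.68 and -0.37, with a mean of -0.18 ± 0.14. Both genes changed side with the dye. Lcch3, an ionotropic GABA receptor subunit, spread over 1.22, 0.57, -0.04 and -0.81. GABA-B-R3, a metabotropic receptor, had 0.28, 0.37 and 0.24 without replicate 3, with a fitted mean of 0.28 ± 0.18 (n = 3). With an array missing, the fit weighs the 2 dye orientations equally, so a fitted mean can differ from the plain mean of the arrays. The GABA transporter Gat had a fitted mean of 0.01 ± 0.18 (n = 3, no value on replicate 3). Its arrays were at -0.28, -0.41 and 0.36, with a plain mean of -0.11. The histone deacetylase HDAC6 had a fitted mean of -0.12 ± 0.23 (n = 3, no value on replicate 3), with its arrays at 0.30, -0.32 and -0.22. Histone acetylation genes had 9 of 17 above 0 and a median of 0.03; chm, an acetyltransferase, had 1.09, 0.36, 0.39 and -0.22. The receptor subunits Rdl and Grd, the transporter VGAT, the other GABA-B receptors, HDAC1, HDAC3, HDAC4 and the sodium channel gene para are not analysed here.

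Other neuronal groups had 0 to 2 members above 0 on all 4 arrays. Of genes with 4 values, these were 2 of 14 cytoskeleton, 2 of 8 transmitter receptor and 1 of 8 clock genes. Channels had 1 of 17, synaptic vesicle genes 1 of 18, neuropeptide genes 1 of 14, transmitter synthesis 0 of 7 and axon guidance 0 of 10. The share over named genes was 6.26%, and these counts are too small to set apart from it. Among transmitter receptors, 8 of 16 were above 0, and 2 of the 8 with 4 values were above 0 on all arrays, both nicotinic subunits. Beside nAChRalpha4 these were nAChRbeta3, at 0.47, 0.11, 0.75 and 0.26. Voltage-gated and related channels had a median of 0.04 over 27 genes, and pyx, a TRP channel of warmth sensing, had 0.01, 0.29, 0.73 and 0.27. The synaptic vesicle genes had 16 of 23 above 0 and a median of 0.10, with array medians of 0.19, 0.25, -0.06 and -0.06. Among them Clc, the clathrin light chain, had 0.08, 0.20, 0.19 and 0.27. Pdf, the neuropeptide of the clock neurons, had 0.19, 0.32, 0.94 and 0.37, with a mean of 0.45 ± 0.16 (n = 4). It was the 1 clock gene of 11 at an unadjusted p under 0.05. Tyrosine hydroxylase, ple, the first step of dopamine synthesis, was at -0.14 ± 0.15 with arrays on both sides of 0. Genes of the cytoskeleton and axonal transport had 13 of 18 above 0 and a median of 0.12. Without replicate 1 they had 11 of 20 below 0 and a median of -0.01. Their array medians were 0.35 and 0.22 in Cy5 but -0.18 and -0.11 in Cy3. Axon guidance genes had 9 of 15 below 0 and a median of -0.05. Without replicate 4 they had 3 of 10 below 0 and 0.16, but only genes with a value on replicate 3 remained.

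Hormone and growth signalling was mixed. ImpL2, a secreted protein that binds insulin-like peptides and dampens their signal, had 1.07, 0.41, 0.53 and 0.06, with a mean of 0.51 ± 0.18 (n = 4). alc, the beta subunit of the energy sensor AMPK, had 0.09, 0.32, 0.75 and 0.12. The insulin and TOR list had 6 of 10 above 0 and a median of 0.18. The juvenile hormone receptor gene gce had -0.74, -0.71, -0.23 and -0.21, below 0 on every array. usp, the partner of the ecdysone receptor, lay on the opposite side with 0.48, 0.46, 0.07 and 0.11. With 6 of 14 hormone genes above 0, the list as a whole had a median of -0.07, or 0.01 without replicate 2 and 0.04 without replicate 3. Medians were 0.05 for 18 cAMP and learning genes, 0.11 for 23 inositol phosphate and calcium genes, 0.16 for 11 MAP kinase genes and 0.09 for 14 genes of the Wnt, Notch, Hedgehog and TGF-beta paths. Array medians of the MAP kinase list were 0.50, 0.67, -0.24 and -0.21, a split by dye.

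Splicing genes lay above 0 in 24 of 34 tested, beside 56.5% of all named genes tested. Their array medians were 0.53 and 0.21 with treated RNA in Cy5 but -0.09 and -0.06 in Cy3, a split by dye. Of the 22 with 4 values, 4 were above 0 on all arrays and 1 below, beside 6.26% and 2.49% of all named genes. SmD2, a core protein of the spliceosomal snRNPs, had 0.74, 0.23, 0.30 and 0.36. Prp38 had 1.17, 0.03, 0.52 and 0.26, and Sf3b3, a subunit that helps recognise the branch point, had 1.19, 0.06, 0.19 and 0.35. Both owed most of their mean to replicate 1. Translation factors had 3 of 23 above 0 on all arrays and 0 below, counts too small to set apart from those shares; eIF2Bdelta, part of the exchange factor that recharges eIF2, had 0.54, 0.52, 0.22 and 0.04. eIF3k had 0.31, 0.11, 0.45 and 0.20. The release factor gene eRF3 had 0.05, 0.02, 0.14 and 0.06, and its mean of 0.07 became -0.12 with print blocks centred one by one. Cytoplasmic ribosome genes had a median of 0.04 over 14, general transcription genes 0.00 over 42, chromatin remodelling genes 0.09 over 15 (-0.02 without replicate 3) and nuclear pore genes 0.14 over 23.

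Autophagy and lysosome genes lay above 0 in 33 of 50, beside 56.5% of all named genes, with a median of 0.12. Of the 39 with 4 values, 5 were above 0 on all arrays and 1 below, beside 6.26% and 2.49%. Atg4a and car, given above, led the members above 0. The member below 0 was Vps15, the kinase partner of Vps34 in the lipid kinase complex that starts autophagosomes, at -0.74, -0.12, -1.09 and -0.52. The array medians were 0.25 and 0.25 with treated RNA in Cy5 and 0.01 and 0.01 in Cy3, so the lean of the list came from 2 arrays. With print blocks centred its median was 0.05. In vesicle traffic, Rab9, which returns receptors from late endosomes to the Golgi, had -1.42, -0.26, -0.86 and -0.34, with a mean of -0.72 ± 0.24 (n = 4). AP-1gamma, a subunit of the clathrin adaptor of the Golgi, had -0.62, -1.22, -0.30 and -0.03. Rab18 had 0.84 on replicate 4 and 0.24, 0.27 and 0.21 on the others. The traffic list of 44 genes had a median of 0.04.

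Protein turnover and DNA maintenance centred slightly above 0. Rpn5, a lid subunit of the proteasome, had 0.23, 0.70, 0.34 and 0.61 with a mean of 0.47 ± 0.16 (n = 4), whereas the 25 proteasome genes had a median of 0.05. Ubiquitin genes had a median of 0.08 over 35, chaperones 0.09 over 28, V-ATPase genes 0.01 over 9, replication and repair genes 0.08 over 37 and cell cycle genes 0.10 over 19. With print blocks centred one by one, the ubiquitin and chaperone medians were -0.02 and -0.01. On single arrays the chaperone medians were 0.48 and 0.29 in Cy5 and -0.16 and -0.22 in Cy3. Without replicate 3 the medians of the replication and repair and cell cycle lists were -0.01 and -0.02. Apoptosis genes had 8 of 11 below 0 and a median of -0.03, or 0.02 without replicate 4.

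Groups of the haemolymph, body surface and gut had medians on both sides of 0. Serpins and haemolymph proteases had 10 of 13 below 0 and a median of -0.14, with replicate 1 at -0.71 and the others between -0.32 and 0.16. Immune recognition and antimicrobial genes had 12 of 18 below 0 and a median of -0.09, or 0.01 without replicate 1. Cuticle genes had 30 of 50 below 0 and a median of -0.06, but 8 of 26 below 0 and a median of 0.20 without replicate 4. Only genes with a value on replicate 3 remained there, so the set of genes changed as well. The array medians of the 50 were 0.25 on replicate 3 and 0.05 on replicate 4. At an unadjusted p under 0.05 there were 4 higher and 0 lower of the 50, beside 2.91% and 2.3% of named genes. Of 20 cuticle genes with 4 values, 0 were above 0 on all arrays and 2 below, beside 6.26% and 2.49%, among them Cpr67Fa1 at -0.39, -0.03, -1.05 and -0.22. Digestive enzymes had a median of -0.06 over 20, or 0.01 without replicate 4; Amyrel, an amylase relative, was above 0 on every array at 0.32, 0.26, 0.47 and 0.38. The odorant-binding gene Obp99a had -1.47, -0.37, -0.05 and -0.14, and the 22 chemosensory genes had a median of 0.08, or -0.02 without centring and -0.05 without replicate 3.

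Markers of cell types were set beside these groups. Their medians were -0.09 for 13 glial, -0.01 for 15 photoreceptor, 0.00 for 16 fat body, -0.07 for 11 muscle and 0.21 for 10 haemocyte markers. The haemocyte median was 0.97 on replicate 1 and between -0.23 and 0.24 on the others. For the P450 lean, the fat body markers, which share Cyp4d21 with that list, had array medians of 0.09, -0.01, -0.47 and -0.04, and their part in it was not tested. Only 4 neuronal markers were measured, with array medians of 0.92, 0.58, -0.31 and -0.20. The markers of the male reproductive tract had a median of -0.05 over 6 genes, and salivary gland and anterior gut markers 0.12 over 4, or -0.01 with print blocks centred.

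**Figure D4:**
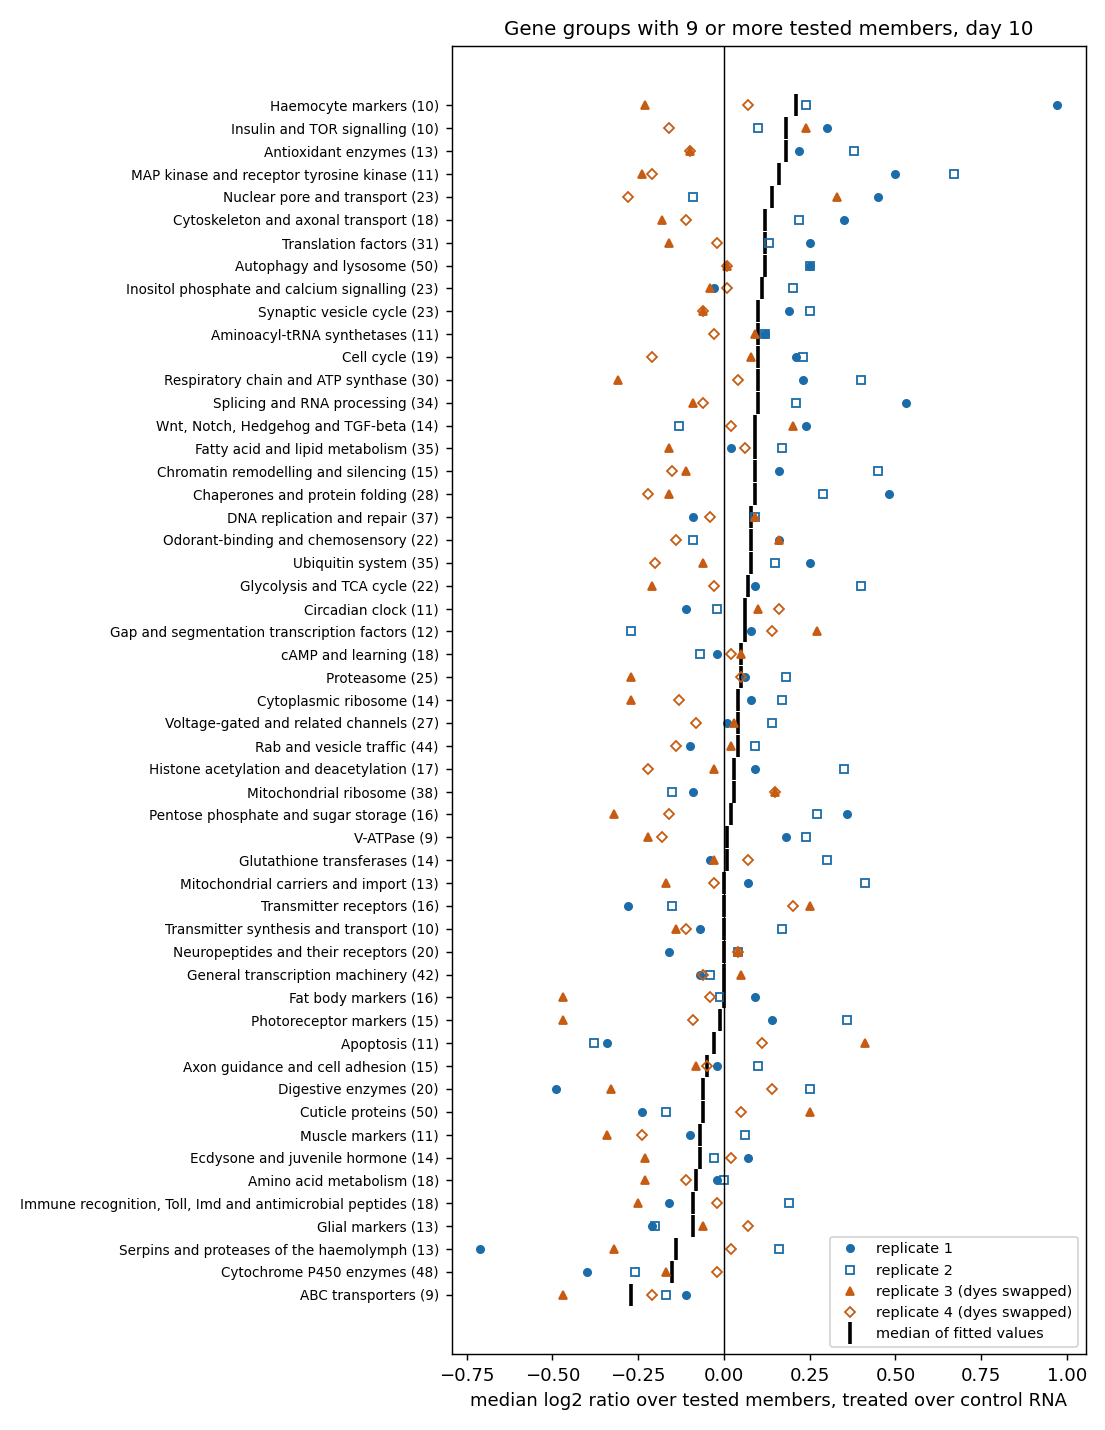
Median log2 ratio of treated over control RNA (x axis) for the 53 gene groups with 9 or more tested members (numbers in brackets), ordered by the median of the fitted values (black ticks); points are the medians on single arrays. ABC transporters and P450 enzymes are lowest at -0.27 and -0.15, and in 28 groups both medians of replicates 1 and 2 lie above both of replicates 3 and 4, against 9 groups the other way.

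Day 10 was set against day 14 to see where heads at the end of valproate differed from heads after the return to normal food. Limma tested 6415 features and called 0 (0%) after adjustment, with a lowest adjusted p of 0.78. At an unadjusted p under 0.05, 244 features were higher on day 10 (3.8%) and 156 lower (2.43%). Of the 1480 named genes with values on all 8 arrays, 10 (0.676%) were above 0 on every day 10 array and below 0 on every day 14 array. Another 8 (0.541%) ran the opposite way. On day 10 alone, 6.08% of the 1480 genes lay above 0 on all 4 arrays and 2.7% below. On day 14 alone, 6.62% lay above 0 on all 4 arrays and 10.7% below. Whether the counts over both days differ from those of unrelated days was not tested. These 18 genes met both conditions by selection, so their values are a description.

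Among the 10 genes above 0 on day 10, AcCoAS averaged 0.24 ± 0.07 on day 10 and -0.35 ± 0.07 on day 14 (SD, n = 4 each). Its day 10 mean was 0.03 with print blocks centred one by one. CG2217 averaged 0.61 ± 0.37 on day 10 and -0.20 ± 0.08 on day 14. atl, the atlastin that fuses membranes of the endoplasmic reticulum, averaged 0.56 ± 0.50 on day 10 and -0.16 ± 0.10 on day 14. The day 10 arrays of CG2217 and atl were spread more widely than their day 14 arrays. The gap gene kni averaged 0.31 ± 0.20 on day 10 and -0.16 ± 0.17 on day 14, but its 2 clones were at -0.33 and 0.90 on replicate 3 of day 10, so its place here rests on their average. Uxs, which makes UDP-xylose for glycan chains, averaged 0.21 ± 0.21 on day 10 and -0.22 ± 0.18 on day 14. The others were CG3036, CG3604, CG6409, CG12204 and CG9360.

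Among the 8 genes below 0 on day 10, AP-1gamma averaged -0.54 ± 0.51 on day 10 and 0.20 ± 0.12 on day 14. The TGF-beta family ligand mav averaged -0.16 ± 0.12 on day 10 and 0.16 ± 0.11 on day 14. SmydA-9 averaged -0.20 ± 0.17 on day 10 and 0.30 ± 0.09 on day 14. The others were RpL7-like, CG14450, CG11151, Tsp66E and CG15706, with day 10 means between -0.37 and -0.08. Without an adjusted call, no gene is shown to differ between the days.

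On all 8 arrays, 1 of the 1480 named genes (0.0676%) stood above 0 and 4 (0.27%) stood below. They too met both conditions by selection, so their values are a description beside the single-day shares given above. Cyp313a1 averaged -0.60 ± 0.16 on day 10 and -0.82 ± 0.21 on day 14, and Cyp4d21 averaged -0.54 ± 0.26 on day 10 and -0.77 ± 0.51 on day 14 (SD, n = 4 each). TfIIFalpha, a subunit of a general transcription factor, and CG17508 were also below 0 on all 8 arrays, and IntS2, a subunit of the Integrator complex, was above 0 on all 8. The 2 clones of TfIIFalpha were at 0.14 and -0.32 on replicate 4 of day 10, so its side there rests on their average. The P450 list had a median of -0.15 on day 10 and -0.13 over the 36 members measured on day 14. The ABC transporter list had a median of -0.27 on day 10 and 0.07 over 5 members on day 14.

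**Figure D5:**
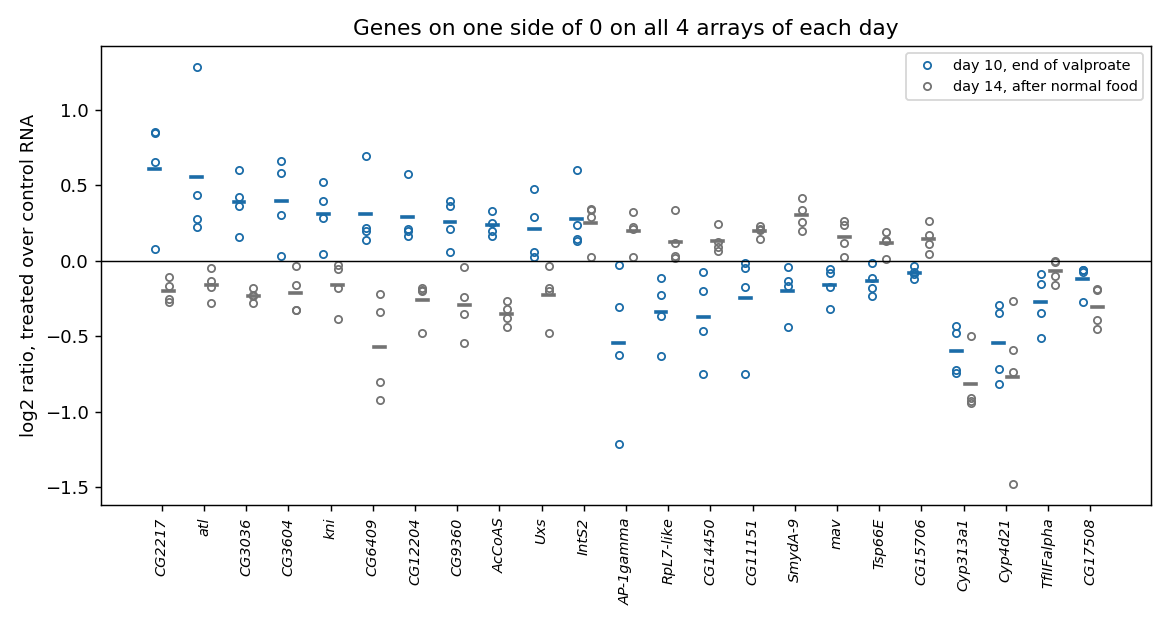
Log2 ratios of treated over control RNA (y axis) for the 23 named genes on one side of 0 on all 4 arrays of day 10 (blue) and on all 4 arrays of day 14 (grey); circles are arrays and lines are means. Genes from CG2217 to Uxs lie above 0 on day 10 and below 0 on day 14, and Cyp313a1 and Cyp4d21 lie below 0 on both days.

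The choice to turn the swapped arrays decides which genes stand out on day 10. As deposited, the medians of the 48 print blocks of an array correlated at 0.32 to 0.87 between arrays of opposite orientation and at 0.61 within each orientation, so a pattern over the slide kept its sign whichever RNA carried the dye. If the authors had turned these arrays before deposit, the values would be used as they stand. Then 2592 features (22.5%) had an unadjusted p under 0.05, still 0 (0%) after adjustment, and the lowest adjusted p was 0.13. In that reading 876 named genes (26%) lay above 0 on all 4 arrays and 451 (13.4%) below. A signal tied to the dye and a change of RNA in treated flies cannot be told apart in those values.

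The leading genes of that reading were others. BthD, a selenoprotein, had deposited values of 1.65, 1.48, 0.77 and 0.52, and PCNA2, a sliding clamp of DNA replication, had 1.44, 1.36, 0.76 and 0.62. Below 0 stood EndoA, an endophilin of synaptic vesicle recycling, at -1.65, -1.14, -0.51 and -0.41, and drosha, which cuts primary microRNAs, at -1.34, -0.81, -0.89 and -1.38. With the swapped arrays turned, drosha was at 0.03, PCNA2 at 0.36, BthD at 0.46 and EndoA at -0.47. LKRSDH, by contrast, was at 0.06 as deposited, Ts at 0.00 and CG17570 at 0.03. The P450 list had a median of -0.15 turned and -0.14 as deposited. Its medians on the swapped arrays, -0.17 and -0.02 when turned, lie above 0 as deposited. In that reading its side therefore rests on replicates 1 and 2, which both readings share. The ABC transporters were at -0.27 turned and 0.15 as deposited.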

How the data were processed

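The deposited table held log2 ratios of the 2 dye channels, 1 per spot for each array. Per the series text, the authors scanned slides on a GenePix scanner, quantified them with GenePix Pro 6.0 and ratio-normalised them with Acuity 4.0. The deposited values kept spots that passed the authors' filters on saturation, uniformity and a signal-to-noise ratio of at least 3. That values are log2 was judged from their sign and range; 2 capped values were left out.

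Each array was centred on its median and the 2 swapped arrays were turned. Names came from the platform annotation, of 27648 rows 15116 with 1 gene, 102 with several and 12430 with none; 15104 matched the RefSeq table. Rows of a gene were averaged (6775 genes), and a feature needed values on 3 or more of the 4 day 10 arrays, which 1551 named genes lacked. Limma 3.58.1 in R 4.3.3 (lmFit, eBayes, gene-wise dye term) tested the 4 day 10 arrays alone, adjusted by Benjamini-Hochberg over all features at 0.05; day 10 minus day 14 used 8 arrays. In simulated data with 200 of 11501 features changed, a log2 change of 1 was called for 0% (91.5% at an unadjusted p under 0.05) and a change of 2 for 79%.

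Named genes were those with the smallest p on one side of 0 on all 4 arrays (12 per direction), the 8 per direction whose array nearest 0 was farthest out, up to 3 per list, and targets of the drugs. Any others named were chosen after their values were seen. The genes and the 59 lists were chosen with earlier results of these data known; 12 genes matched by name only, such as the cyclophilin Cyp40, were taken out. No set test was run. Alternatives changed the fit, dye term, centring, scaling, weights, missing-value filter, averaging, orientation and replicates. Fits without a replicate kept features with a value in each dye orientation, so their gene sets differ from that of the main fit.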

Additional observations from a re-analysis of the deposited data

Results flagged for a closer look

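In 3 of 89 genes examined, 1 of the 4 day 10 arrays lay apart from the other 3, by a gap above Dixon's critical share of the gene's range; chance gives about 1 in 20. CG10098 was at 1.06 on replicate 3, and CG9689 at -0.81 on replicate 1. Rab18 was at 0.84 on replicate 4.

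Of the genes named for day 10, 4 lay on opposite sides of 0 on every array of the 2 days. The day 10 minus day 14 difference was 0.81 for CG2217, -0.74 for AP-1gamma, 0.59 for AcCoAS and 0.47 for kni. The test of the difference itself was not passed by any of them (adjusted p = 0.776 in limma for each).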

How the results depend on the processing

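Calls at day 10 stayed at 0 under all alternatives run, with lowest adjusted p values of 0.13 to 0.99. The 582 features at an unadjusted p under 0.05 became 255 without the dye term, 2592 with the swapped arrays taken as already turned and 272 when only named genes were counted. Leaving out single replicates gave 644 to 1564, the most without replicate 2; the cause was not tested. Named genes above 0 on all 4 arrays numbered 211, and 101 without centring, 157 with print blocks centred (both chosen after seeing the data). Of 1300 gene values under alternatives other than the orientation, 6 changed sign; with the swapped arrays taken as already turned, 42 of 102 genes did. eRF3 was at -0.02 without centring and -0.12 with print blocks centred. Gat was at -0.11 without the dye term, -0.01 without centring and -0.03 to 0.04 with single replicates left out. HDAC6 was at -0.27 to 0.04 with single replicates left out, above 0 without replicate 2. Of 767 list medians, 18 moved by 1 SD or more of the list's array medians, 5 of them for aminoacyl-tRNA synthetases (0.10 over 11 genes, range -0.05 to 0.23). Over the same alternatives 37 of 59 lists had medians on both sides of 0. Among the others were P450 genes (-0.24 to -0.10), ABC transporters (-0.35 to -0.09) and the antioxidant (0.04 to 0.18) and autophagy lists (0.03 to 0.14). Splicing genes (0.04 to 0.15), GABA signalling genes (0.06 to 0.19) and serpins and haemolymph proteases (-0.30 to -0.06) were also among them. The antioxidant, splicing and GABA lists kept their side although their array medians were split by dye. With the swapped arrays taken as already turned, 18 lists changed sign, among them the ABC transporters (0.15).

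For day 10 minus day 14, calls stayed at 0 under all alternatives. The 400 features at an unadjusted p under 0.05 became 251 without the dye term and 350 with a replicate block. Leaving out single arrays gave 166 to 536. The lowest adjusted p was 0.78, and 0.23 with the block. The replicate numbers were not taken as pairs, since deviations of same-numbered arrays correlated at 0.06, 0.42, 0.39 and 0.10 across 3541 features. Replicates 2 and 3 correlated best with their own number and replicates 1 and 4 did not.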
